A study of Mus musculus with 8 samples.

Results

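The collagen chain genes are described here in cultured liver cancer lines of the mouse. They were chosen by name, as every gene of the array's probe table whose symbol is Col, a number, the letter a and a number. This gave 44 of the 22180 genes with a probe set of their own, and the same 44 symbols are in the RefSeq table of mouse genes. They were measured by 47 probe sets that name 1 gene. Col1a2, Col5a1 and Col6a1 have 2 such probe sets each, and the one with the higher mean over all lines was used.

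Each of the 8 lines is a clone grown from a liver tumour of the C57BL/6 strain and was hybridised untreated to 1 Affymetrix array. The tumours arose from transformed hepatocytes, under c-Myc together with Nras carrying G12V from the pCaMIN vector, so all lines share the oncogenes. Cholangiocarcinoma within the liver (ICC) resembles bile ducts, and its 4 lines came from focal electroporation of the liver, while hepatocellular carcinoma (HCC) resembles hepatocytes, and its 4 lines came from hydrodynamic injection into the tail vein. Tumour type and delivery method therefore cannot be told apart. The female-labelled lines are ICC9, ICC10, HCC2.1 and HCC2.4, and the male-labelled lines are ICC2.7, ICC2.9, HCC1 and HCC4. The labels give no age and do not tie lines to mice or tumours, so a p-value here rests on the spread between the cultures hybridised, which may be technical.

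Collagens are the main structural proteins of the extracellular matrix. Each molecule is wound from alpha chains, which are the products of the genes described here, and chains of different genes can share a molecule. Fibrillar collagens build the cables of scar and tumour stroma, type IV collagen builds the sheet of the basement membrane under epithelia, and the remaining types link, coat or anchor these structures. In the fibrotic liver most fibrillar collagen is known to come from stellate cells and fibroblasts, while carcinoma cells can also make collagen.

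Values are log2 signals after robust multi-array averaging (RMA), so a difference of 1 is a doubling. Signals of different probe sets depend on the probes and are not compared as amounts of transcript. The array medians lay between 5.02 and 5.09, and 25 of the 44 genes (56.8%) had a mean above the median gene (5.66), against 50.0% of all genes. Signal over background was not assessed, and a gene that stays low in every line may simply not have been detected. Differences were tested with limma over all 22180 genes, and a gene was called at a Benjamini-Hochberg adjusted p under 0.05. An SE is limma's, and ± gives the standard deviation over the 4 lines of a type. The deposited values of the 8 lines span only 7 directions, with most of the missing one in ICC9, so the lines hold fewer independent values than their number. For every collagen or list gene called here, the adjusted p with the missing direction in the model is also given.

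Between the tumour types the collagens that differed were type III collagen, higher in ICC lines, and the alpha 5 chain of type IV and type VII collagen, both lower in ICC lines. These 3 of 44 genes (6.82%) were called, against 58 of all genes (0.261%). Col3a1 was the 1 called higher in ICC (0.131% of all genes were), and Col4a5 and Col7a1 were the 2 called lower (0.131% of all genes). At an unadjusted p under 0.05, 8 collagens were higher (18.2%, against 7.06%) and 4 lower in ICC (9.09%, against 7.04%). Collagens whose types differed by 1 or more numbered 7 of 44 (15.9%), against 1.64% of all genes. The types did not overlap in 8 of 44 (18.2%, against 8.63%), of which 5 were higher (11.4%, against 4.19%) and 3 lower in ICC (6.82%, against 4.44%). Of the 44 genes 26 had a positive difference (59.1%, against 50.2% of all genes), and the median difference was 0.06, against 0.00 over all genes. Collagens thus moved in both directions, and large differences in a few chains stood beside small ones in most.

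**Figure D1:**
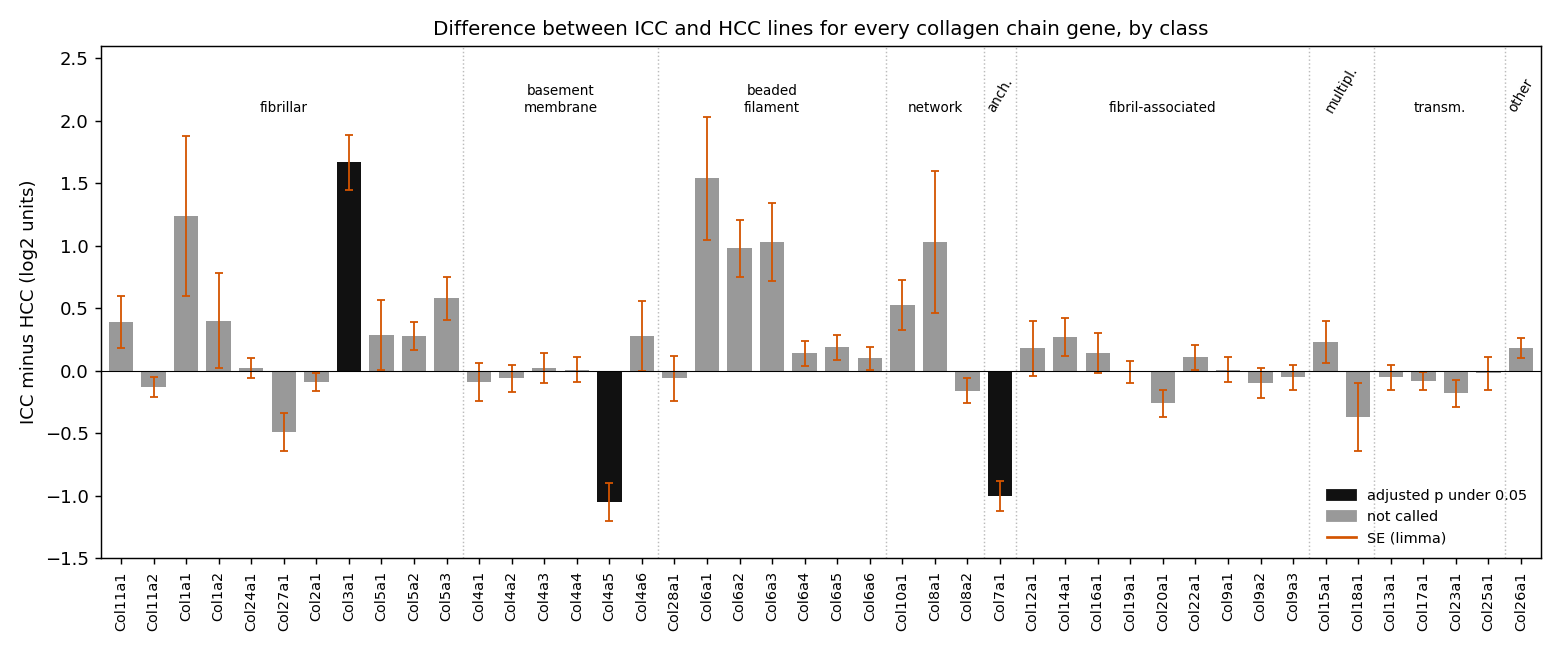
ICC minus HCC difference of each of the 44 collagen chain genes in log2 units, in classes separated by dotted lines. Bars are differences of the means of 4 lines per type and error bars are limma's SE. The black bars, called at an adjusted p under 0.05, are Col3a1 (1.67), Col4a5 (-1.05) and Col7a1 (-1.00).

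Col3a1 encodes the chain of type III collagen, which forms fine fibrils beside type I collagen. Its signal was 6.67 in ICC9, 6.67 in ICC10, 7.21 in ICC2.7 and 7.34 in ICC2.9, and 5.57 in HCC1, 5.63 in HCC4, 4.87 in HCC2.1 and 5.16 in HCC2.4. Every ICC line lay above every HCC line, with a gap of 1.04 between the lowest ICC and the highest HCC line. The means were 6.97 ± 0.35 and 5.31 ± 0.36, a 3.17-fold difference (log2 1.67, SE 0.22, adjusted p = 0.0252). The difference had nearly the same size in the female-labelled lines (1.65) and in the male-labelled lines (1.68). Limma no longer called it without ICC9 (adjusted p = 0.0735), ICC2.7 (0.0825), ICC2.9 (0.0715), HCC2.1 (0.0842) or HCC2.4 (0.101). With the missing direction in the model the adjusted p was 0.0742, with sex and that direction 0.00379, and with the lines of each type and sex as a random block 0.0818.

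Col7a1 encodes type VII collagen, the anchoring fibril that fastens an epithelium and its basement membrane to the stroma. It measured 6.17 in ICC9, 6.28 in ICC10, 6.18 in ICC2.7 and 6.04 in ICC2.9, and 7.45 in HCC1, 6.99 in HCC4, 7.26 in HCC2.1 and 6.99 in HCC2.4. The 4 ICC lines lay close together and 0.71 below the lowest HCC line. The means were 6.17 ± 0.10 and 7.17 ± 0.22, a 2.01-fold difference (log2 -1.00, SE 0.12, adjusted p = 0.0206). The call was lost without ICC9 (adjusted p = 0.0974), ICC2.7 (0.0688), ICC2.9 (0.0588), HCC2.1 (0.087) or HCC2.4 (0.0696), and in the male-labelled lines alone (0.0891). With the missing direction in the model the adjusted p was 0.0742, with sex and that direction 0.0433, and with the random block 0.159.

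Col4a5 encodes the alpha 5 chain of type IV collagen, one of the less widespread basement membrane chains, whose loss causes hereditary kidney disease. It measured 6.64 in ICC9, 6.56 in ICC10, 6.81 in ICC2.7 and 6.60 in ICC2.9, and 7.38 in HCC1, 8.11 in HCC4, 7.68 in HCC2.1 and 7.64 in HCC2.4. Again no ICC line reached an HCC line, with a gap of 0.57. The means were 6.65 ± 0.11 and 7.70 ± 0.30, a 2.07-fold difference (log2 -1.05, SE 0.15, adjusted p = 0.0316). The call was lost without ICC9 (adjusted p = 0.12), ICC10 (0.0668), ICC2.7 (0.0825), ICC2.9 (0.103), HCC2.1 (0.111) or HCC2.4 (0.104), and in the male-labelled lines alone (0.162). The adjusted p was 0.096 with the missing direction in the model, 0.0516 with sex and that direction, and 0.232 with the random block. When the lines of each type and sex were averaged, leaving 2 values per type, limma called none of the 3 genes (adjusted p = 0.914 for Col3a1 and 0.867 for Col4a5 and Col7a1), nor any of all genes, while the unadjusted p was under 0.05 for 5 collagens and for 1170 genes in all.

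The sequences before the start sites of these 3 genes and of Col6a1, the collagen with the largest difference short of a call, are shown to set the promoters of chains that were higher in ICC beside those of chains that were lower. They are the 250 bases before the RefSeq start on build GRCm38.p6, 5′ to 3′ on the strand of the gene. Capitals mark matches to TATAAA (the core of a TATA box), to CCAAT, to GGGCGG (a GC box), to CACGTG (an E-box) or to TGANTCA (an AP-1 site), each searched on both strands, and matches may overlap. Col3a1 is at chr1:45311288-45311537 on the plus strand, Col7a1 at chr9:108953336-108953585 on the plus strand, Col4a5 at chrX:141475169-141475418 on the plus strand and Col6a1 at chr10:76726045-76726294 on the minus strand.
Col3a1: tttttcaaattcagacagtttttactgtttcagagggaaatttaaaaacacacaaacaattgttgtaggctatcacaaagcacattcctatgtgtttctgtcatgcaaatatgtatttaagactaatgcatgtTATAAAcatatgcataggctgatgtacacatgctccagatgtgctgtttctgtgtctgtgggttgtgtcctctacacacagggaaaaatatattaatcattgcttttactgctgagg
Col7a1: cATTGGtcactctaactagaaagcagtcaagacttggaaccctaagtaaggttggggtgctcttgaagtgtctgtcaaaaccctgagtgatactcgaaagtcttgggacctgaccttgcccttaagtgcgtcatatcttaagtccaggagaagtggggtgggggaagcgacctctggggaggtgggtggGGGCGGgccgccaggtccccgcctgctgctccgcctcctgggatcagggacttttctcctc
Col4a5: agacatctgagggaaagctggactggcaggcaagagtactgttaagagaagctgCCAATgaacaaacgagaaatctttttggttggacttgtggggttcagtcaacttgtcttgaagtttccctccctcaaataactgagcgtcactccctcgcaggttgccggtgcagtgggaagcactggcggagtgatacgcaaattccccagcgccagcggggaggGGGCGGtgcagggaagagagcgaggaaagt
Col6a1: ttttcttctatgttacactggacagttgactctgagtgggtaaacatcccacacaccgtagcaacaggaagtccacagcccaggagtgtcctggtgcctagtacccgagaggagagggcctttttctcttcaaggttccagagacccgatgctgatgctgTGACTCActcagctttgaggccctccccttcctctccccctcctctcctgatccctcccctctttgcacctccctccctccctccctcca

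The Col3a1 window was poor in G and C (35.2%) and held 1 TATAAA, whose first base lies 117 bases before the start, and no GC box. Both chains that were lower in ICC had a window with a GC box and a CCAAT box, at -61 and -249 in Col7a1 (56.4% G and C) and at -30 and -196 in Col4a5 (54.0%). Windows of chains not called between types also held both motifs, among them Col5a3 and Col11a1 with positive and Col4a2 and Col18a1 with negative differences. The Col6a1 window (56.0%) held 1 AP-1 match, at -90. Windows were found for 35 of the 44 genes, 38 windows in all because Col18a1, Col6a2 and Col9a1 have more than 1 start. A GC box was present in 22 of 38 (57.9%) and in 32.7% of all 32851 promoter windows of this length. A CCAAT box was present in 13 (34.2%, against 33.8%), a TATAAA in 5 (13.2%, against 12.4%), an AP-1 match in 1 (2.63%, against 6.75%) and CACGTG in 0 (against 6.02%). These are letter matches, and binding was not measured.

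Among the 11 fibrillar chains 8 had a positive and 3 a negative difference, with a median of 0.29, and only Col3a1 was called. The chains of type I collagen, the main collagen of scar tissue, varied most within the types. Col1a1 measured 7.03 in ICC9, 6.44 in ICC10, 9.82 in ICC2.7 and 8.19 in ICC2.9, and 7.18 in HCC1, 6.52 in HCC4, 6.41 in HCC2.1 and 6.42 in HCC2.4. The groups overlapped, since ICC10 lay below HCC1 and HCC4, and the high ICC mean (7.87 ± 1.49, against 6.63 ± 0.37) came from ICC2.7 and ICC2.9. The difference of 1.24 was not called (95% interval -0.20 to 2.68, adjusted p = 0.421).

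Col1a2, the partner of Col1a1 in type I collagen, did not follow it in every line. It measured 5.79 in ICC9, 5.52 in ICC10, 6.69 in ICC2.7 and 6.77 in ICC2.9, and 5.48 in HCC1, 6.78 in HCC4, 5.48 in HCC2.1 and 5.42 in HCC2.4. HCC4 was thus at the level of the highest ICC lines for Col1a2 while its Col1a1 signal was near the lowest, and HCC1 had the highest Col1a1 signal of the HCC lines but not of Col1a2. The second probe set of Col1a2, with lower signal, also had its highest value in HCC4 (4.76, against 3.10 to 4.09 in the other lines). Its ICC minus HCC difference was -0.30, against 0.40 for the probe set used (adjusted p = 0.683), so the probe sets disagree on the sign.

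Type V collagen starts and limits the growth of type I fibrils. Col5a3 measured 6.51, 6.41, 7.16 and 6.79 in ICC9, ICC10, ICC2.7 and ICC2.9, and 6.30, 6.24, 6.11 and 5.92 in HCC1, HCC4, HCC2.1 and HCC2.4. The types did not overlap, by a margin of 0.11, and the difference of 0.58 (SE 0.17) was not called (adjusted p = 0.191), although it was with sex in the model (0.0463), and not with sex and the missing direction (0.125). Col5a1 overlapped, at 7.24, 7.19, 8.30 and 7.84 in the ICC lines and 7.86, 7.41, 6.96 and 7.16 in the HCC lines in the same order (difference 0.29, adjusted p = 0.681). Col5a2, which lies next to Col3a1 in the genome, measured 5.66, 5.53, 5.80 and 5.84 against 5.43, 5.20, 5.47 and 5.60. Its difference was 0.28 (adjusted p = 0.308), against 1.67 for its neighbour.

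Col27a1, a fibrillar chain of cartilage, lay on the other side, at 6.65, 6.42, 6.65 and 6.62 in the ICC lines and 6.83, 6.84, 7.45 and 7.17 in the HCC lines. No ICC line overlapped an HCC line, and the difference of -0.49 (SE 0.15) was not called (adjusted p = 0.201). The other fibrillar chains, Col2a1, Col11a1, Col11a2 and Col24a1, had differences between -0.13 (Col11a2) and 0.39 (Col11a1), none of them called.

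The 6 chains of type IV collagen gave 3 positive and 3 negative differences with a median of -0.03, and Col4a5 was the only call. Col4a1 and Col4a2 are the chains of nearly every basement membrane, and they differed little between the lines. Col4a1 measured 7.77, 7.59, 8.28 and 8.08 in ICC9, ICC10, ICC2.7 and ICC2.9, and 7.99, 8.08, 8.04 and 7.96 in HCC1, HCC4, HCC2.1 and HCC2.4. Col4a2 measured 7.65, 7.53, 7.89 and 7.82 against 7.63, 7.94, 7.83 and 7.73. Both were lowest in ICC10, and neither differed between types (-0.09, adjusted p = 0.831, and -0.06, adjusted p = 0.851). The intervals were -0.42 to 0.24 for Col4a1 and -0.31 to 0.19 for Col4a2. The difference of Col4a1 changed sign without ICC10 (0.03) and those of both genes did in the male-labelled lines alone (0.14 and 0.07).

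Col4a6 is the neighbour of Col4a5 on the X chromosome, and its chain shares molecules with the alpha 5 chain. Its signal was 5.38, 5.13, 6.13 and 6.02 in the ICC lines and 5.09, 6.05, 5.27 and 5.11 in the HCC lines. ICC2.7, ICC2.9 and HCC4 were high and the other lines low, so Col4a6 did not separate the types as Col4a5 did (difference 0.28, adjusted p = 0.696). Col4a3 and Col4a4, known from the kidney filter, stayed between 4.72 and 5.25 in all lines, below the median gene (differences 0.02 and 0.01, with a sign that turned under several alternatives, for Col4a4 also after quantile normalization).

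Type VI collagen forms beaded microfilaments around cells, from the chains of Col6a1, Col6a2 and Col6a3 together. All 3 of these genes had differences near or above 1 without a call over all genes. Col6a1 measured 8.50 in ICC9, 8.33 in ICC10, 10.16 in ICC2.7 and 9.34 in ICC2.9, and 7.50 in HCC1, 8.73 in HCC4, 6.96 in HCC2.1 and 6.96 in HCC2.4. Only HCC4 reached into the ICC range, and the means of 9.08 ± 0.84 and 7.54 ± 0.83 differed by 1.54 (SE 0.49, adjusted p = 0.22). The second probe set of Col6a1 also had ICC2.7 highest (6.40), HCC2.1 lowest (4.37) and HCC4 highest of the HCC lines (5.56), with a difference of 0.94.

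Col6a2, the next gene to Col6a1 on chromosome 10, measured 7.03, 6.86, 7.86 and 7.43 in the ICC lines and 6.23, 6.76, 6.09 and 6.19 in the HCC lines. The types did not overlap, with HCC4 again the highest HCC line, 0.10 below ICC10 (difference 0.98, SE 0.23, adjusted p = 0.124). Col6a3 measured 5.88, 5.45, 6.81 and 6.94 against 5.31, 5.13, 5.10 and 5.41. It did not overlap either, by 0.04, but here HCC4 was among the low lines and most of the difference of 1.03 (SE 0.31, adjusted p = 0.201) came from ICC2.7 and ICC2.9. With sex in the model limma called Col6a1 (adjusted p = 0.0363) and Col6a2 (0.0259), not Col6a3 (0.0854). When the missing direction was added to sex, none of the 3 was called (0.0864, 0.0665 and 0.17). The alternative alpha 3-like chains Col6a4, Col6a5 and Col6a6 and the related Col28a1 had differences from -0.06 to 0.19.

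Col8a1 encodes a chain of type VIII collagen, a net-forming collagen of vessel walls and of the cornea. It measured 7.88, 7.86, 9.50 and 8.35 in ICC9, ICC10, ICC2.7 and ICC2.9, and 7.12, 9.03, 6.56 and 6.74 in HCC1, HCC4, HCC2.1 and HCC2.4. HCC4 exceeded all ICC lines but ICC2.7, and the difference of 1.03 (SE 0.57) was not called (adjusted p = 0.453). Its partner Col8a2 stayed between 5.04 and 5.50 (difference -0.16, adjusted p = 0.5), so the wide range of Col8a1 had no counterpart there. Col10a1, a related chain of growth plate cartilage, measured 4.53, 4.33, 5.26 and 5.10 in the ICC lines and 4.42, 4.29, 4.20 and 4.19 in the HCC lines. ICC2.7 and ICC2.9 were the high lines, at a level below the median gene (difference 0.53, adjusted p = 0.289).

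Col18a1 encodes a basement membrane collagen that carries sugar chains and releases endostatin, and hepatocytes are known to make it. It measured 8.81, 8.69, 9.61 and 9.74 in the ICC lines and 9.93, 9.79, 9.26 and 9.34 in the HCC lines. The types overlapped (difference -0.37, adjusted p = 0.582), while the male-labelled lines of each type lay above the female-labelled ones. Col20a1, a fibril-associated collagen, measured 5.83, 5.87, 5.71 and 5.53 against 5.79, 6.14, 6.05 and 5.98 (difference -0.26, adjusted p = 0.346). Col26a1 measured 5.94, 5.96, 5.80 and 5.90 against 5.70, 5.69, 5.72 and 5.78, without overlap but by only 0.02 (difference 0.18, adjusted p = 0.337). The other 23 genes had ranges over the 8 lines from 0.16 to 1.14 (median 0.38), differences from -0.18 to 0.39 and adjusted p of 0.442 or more, and 8 of them lay above the median gene.

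**Figure D2:**
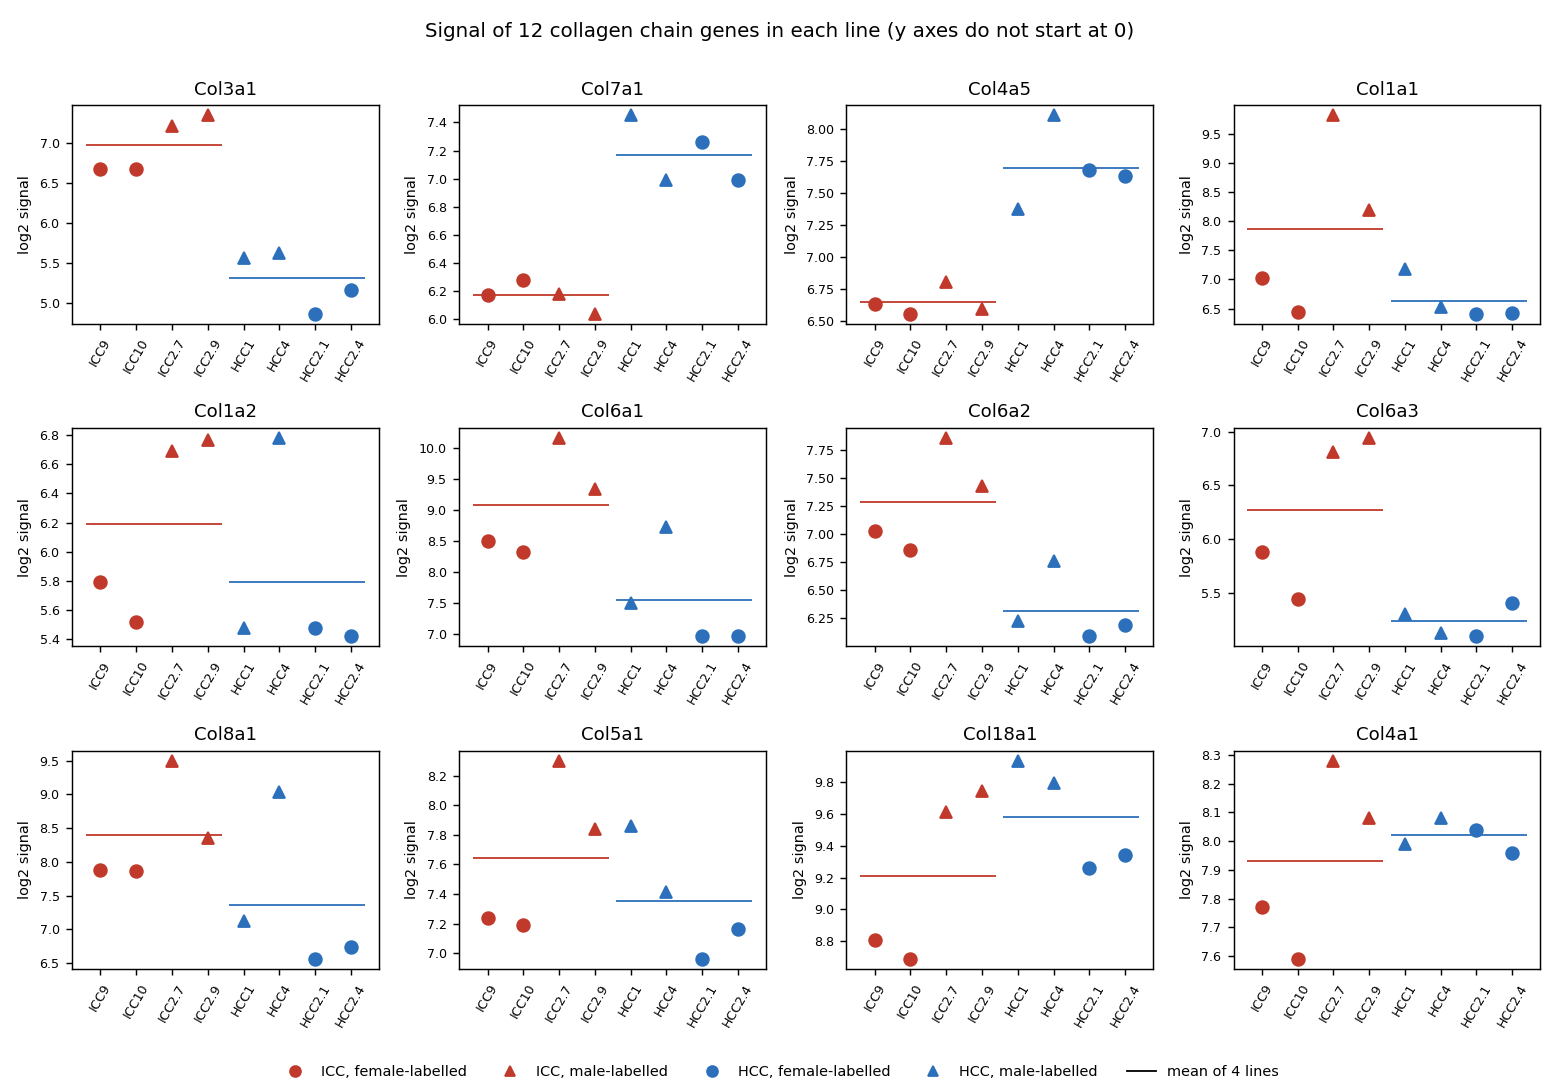
Log2 signal of 12 collagen chain genes in each line, ICC in red and HCC in blue, female-labelled lines as circles, male-labelled lines as triangles, and the mean of each type as a line. Col3a1, Col7a1 and Col4a5 separate the types, Col18a1 and Col5a1 separate the labelled sexes, and HCC4 is high among HCC lines for Col1a2, Col6a1, Col6a2 and Col8a1.

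Some collagens also varied between lines of one type. The 4 ICC lines spanned at least 1 in 9 of 44 genes (20.5%, against 6.38% of all genes), namely Col1a1, Col1a2, Col4a6, Col5a1, Col6a1, Col6a2, Col6a3, Col8a1 and Col18a1. The 4 HCC lines did so in 3 of 44, namely Col1a2, Col6a1 and Col8a1 (6.82%, against 7.44%). Over all 8 lines, which includes the difference between types, a range of at least 1 was found in 16 of 44 genes (36.4%, against 16.3%), and a range of at least 2 in Col1a1 (3.41), Col6a1 (3.20), Col8a1 (2.94) and Col3a1 (2.47), 4 of 44 (9.09%, against 2.98%). ICC2.7 was the highest line for 17 of 44 collagens (38.6%), while it was the highest for 15.1% of all genes. The counts were 7 for ICC10 (15.9%, against 14.8% of all genes), 7 for HCC4 (15.9%, against 16.7%), 5 for HCC1 (11.4%, against 13.5%), 4 for ICC2.9 (9.09%, against 14.9%), 3 for HCC2.1 (6.82%, against 12.5%) and 1 for HCC2.4 (2.27%, against 14.0%). HCC2.1 was the lowest line for 14 (31.8%, against 13.9%), ICC2.9 for 11 (25.0%, against 16.5%), ICC10 for 8 (18.2%, against 12.7%) and HCC2.4 for 6 (13.6%, against 12.3%). ICC2.7, HCC1 and HCC4 were each the lowest for 2 (4.55%, against 15.6%, 13.6% and 16.6%). ICC9 was the highest for 0 and the lowest for 2, and over all genes it was the highest in 2.33% and the lowest in 2.5%. The mean deviation from the gene means over all 44 collagens was 0.35 in ICC2.7, 0.12 in ICC2.9, 0.08 in HCC4, -0.03 in ICC9, -0.07 in HCC1, -0.09 in ICC10, -0.16 in HCC2.4 and -0.19 in HCC2.1. ICC2.7 was highest on this measure for fibrillar (0.59), beaded filament (0.63) and network-forming chains (0.74). It was also highest for fibril-associated chains (0.14, against 0.11 in HCC4) and for Col15a1 with Col18a1 (0.42). HCC1 was highest for Col7a1 (0.78) and the transmembrane chains (0.14), and ICC10 for Col26a1 (0.15). In the basement membrane class HCC4 was highest (0.28, against 0.14 in ICC2.7).

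**Figure D3:**
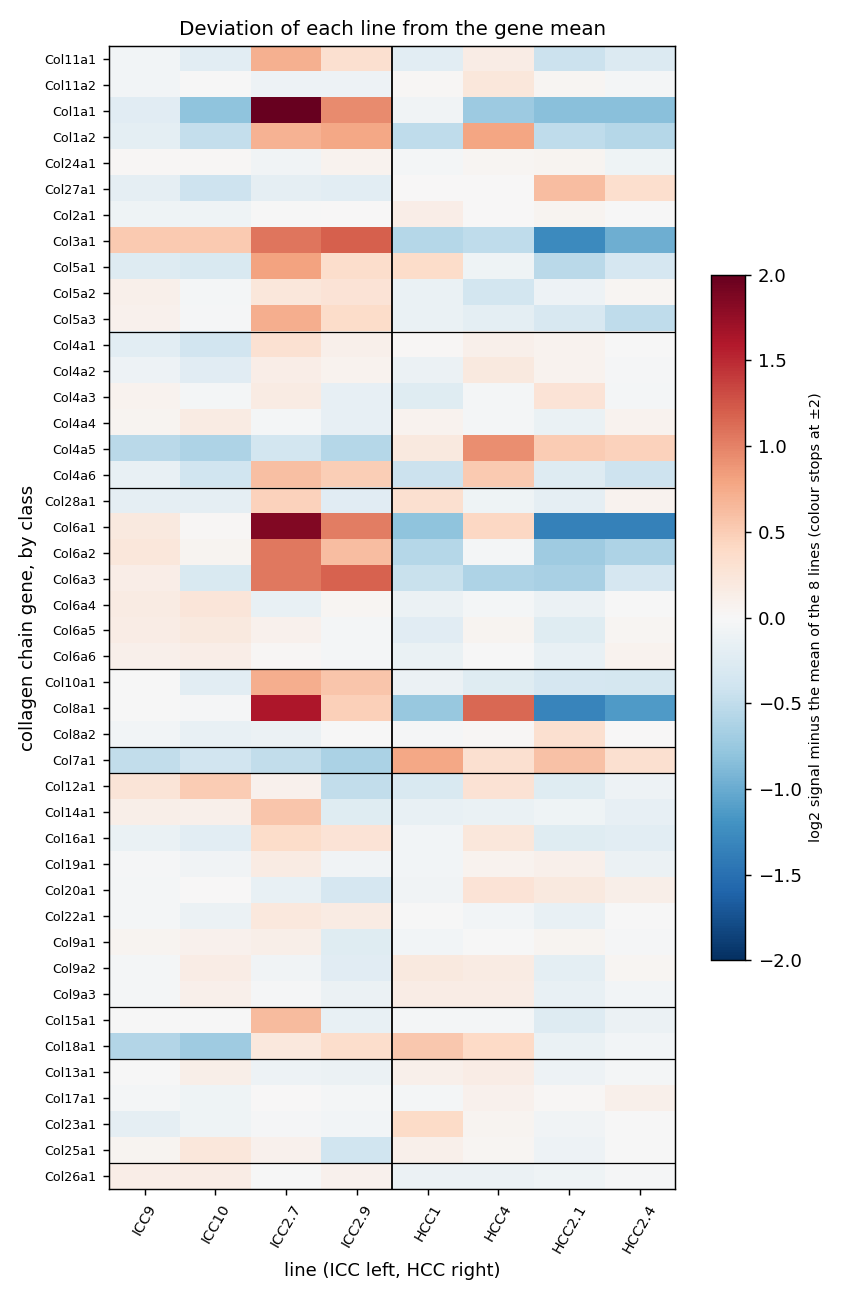
Deviation of each line from the mean of the 8 lines, for every collagen chain gene by class, in log2 units from blue (low) to red (high). The columns of ICC2.7 and ICC2.9 are red for Col1a1, Col3a1 and Col6a1 to Col6a3, and Col7a1 and Col4a5 are blue in all ICC and red in all HCC lines.

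The collagens that differed between the labelled sexes, with tumour type in the model, were all lower in the female-labelled lines. Col18a1, Col3a1 and Col5a1 were called, which is 3 of 44 (6.82%) against 2.94% of all genes called in either direction and 1.47% called lower, and 0 of 44 were called higher (against 1.48%). At an unadjusted p under 0.05 the counts were 14 lower (31.8%, against 8.44%) and 0 higher (against 9.03%), together 17.5% of all genes. Only 14 of 44 had a difference above 0 (31.8%, against 51.3%). Within each type the labelled sex goes with a pair of lines that may share a source, so sex and source cannot be told apart. Col18a1 differed by -0.74 (SE 0.10, adjusted p = 0.0104) and Col3a1 by -0.59 (SE 0.09, adjusted p = 0.0135). Col5a1 differed by -0.72 (SE 0.15, adjusted p = 0.044). For Col18a1 and Col5a1 all 4 male-labelled lines lay above all 4 female-labelled lines. With Col16a1, a fibril-associated collagen, this was true of 3 of 44 (6.82%, against 8.76% of all genes without overlap and 4.35% lower in female-labelled lines). For Col3a1 it held within each type. The second probe set of Col5a1, with lower signal, overlapped between the labelled sexes. It measured 5.21 to 5.68 in the female-labelled and 5.42 to 5.56 in the male-labelled lines.

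Short of a call, Col6a1 differed between the labelled sexes by -1.25 (adjusted p = 0.0557), Col16a1 by -0.40 (adjusted p = 0.0645), Col1a2 by -0.88 (adjusted p = 0.124) and Col1a1 by -1.35 (adjusted p = 0.187). Without ICC9 limma called none of the 44, against 0.658% of all genes. An unadjusted p under 0.05 was then found for 13 collagens, against 2337 of all 22180 genes. The adjusted p without ICC9 was 0.0634 for Col18a1, 0.0856 for Col3a1 and 0.176 for Col5a1. Without HCC1 the call of Col5a1 was lost (0.088), and 7 of the 44 collagens were called, against 3.37% of all genes. Col5a1 was also not called with averaged probe sets (difference -0.40, adjusted p = 0.0757) or with the random block (0.0961). Nor was it called without ICC10 (0.11), ICC2.7 (0.0893), ICC2.9 (0.075), HCC2.1 (0.124) or HCC2.4 (0.0819), or with the missing direction (0.102). With that direction Col18a1 (0.0363) and Col3a1 (0.0494) were called.

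Whether the difference between types depends on the labelled sex was tested as an interaction. This contrast sets ICC9, ICC10, HCC1 and HCC4 against ICC2.7, ICC2.9, HCC2.1 and HCC2.4. The latter are all the lines with a point in their names. An interaction therefore cannot be told apart from a difference between these sets of names. Limma called 0 of 44 collagens and 0.0% of all genes, while the unadjusted p was under 0.05 for 8 collagens (18.2%) and for 20.1% of all genes. Of these, 2 had a positive interaction (4.55%, against 9.33%) and 6 a negative one (13.6%, against 10.8%). The interaction was above 0 in 17 of 44 (38.6%, against 51.8%). Col6a3 was nearest, with a difference between types of 0.41 in the female-labelled and 1.66 in the male-labelled lines (interaction -1.25, SE 0.25, adjusted p = 0.113). It was called with the missing direction in the model, where 1.15% of all genes were. Col1a1 differed by 0.32 and 2.15 (interaction adjusted p = 0.207) and Col8a1 by 1.22 and 0.85 (0.839). Each of these values rests on 2 lines against 2.

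**Figure D4:**
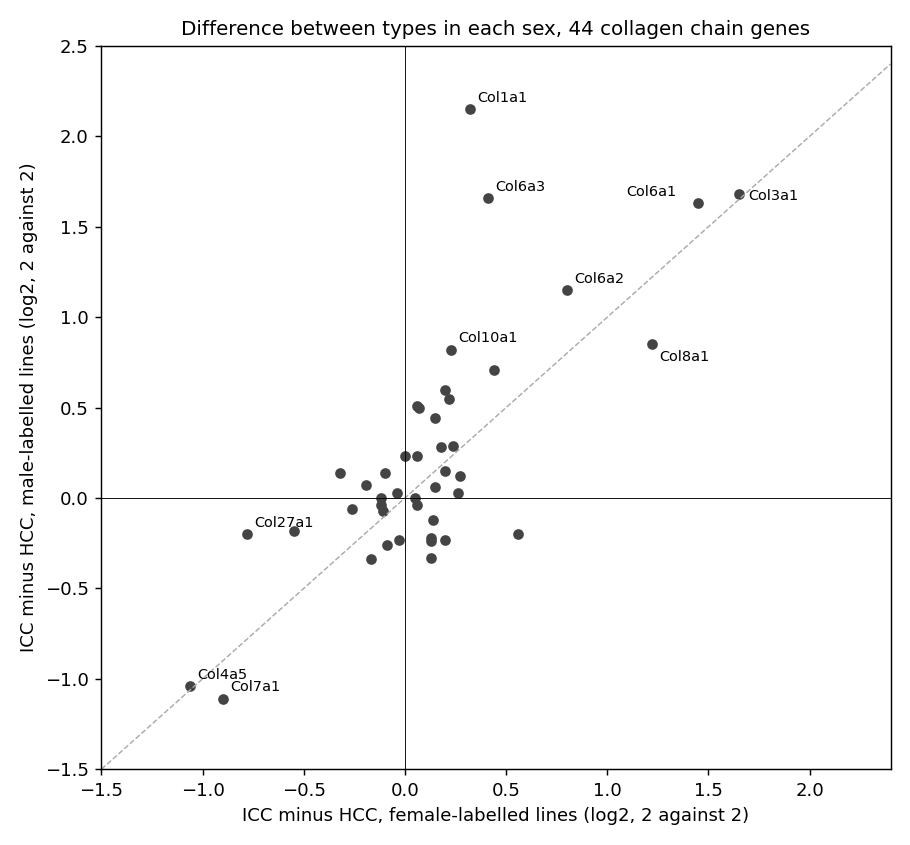
ICC minus HCC difference of the 44 collagen chain genes in the female-labelled lines (x axis) and in the male-labelled lines (y axis), in log2 units, each from 2 against 2 lines. Points on the dashed line have equal differences, as nearly holds for Col3a1 (1.65 and 1.68) and Col4a5 (-1.06 and -1.04), while Col1a1 (0.32 and 2.15) and Col6a3 (0.41 and 1.66) lie above it.

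Before secretion, collagen chains are hydroxylated and folded with the help of chaperones, and they are trimmed, mostly afterwards, and cross-linked. Of 30 genes listed for these steps 26 were measured, and 1 of them was called (3.85%, against 0.261% of all genes). Serpinh1 was the 1 called higher in ICC and 0 were called lower, with 9 positive (34.6%, against 50.2% of all genes) and 16 negative differences and a median of -0.15. At an unadjusted p under 0.05 there were 6 (23.1%, against 14.1%). Serpinh1, the chaperone of the collagen helix, measured 10.04, 9.40, 11.62 and 11.34 in ICC9, ICC10, ICC2.7 and ICC2.9, and 6.41, 5.95, 6.35 and 6.20 in HCC1, HCC4, HCC2.1 and HCC2.4. Its difference of 4.37 (SE 0.45, adjusted p = 0.0136) was larger than that of any collagen chain. The adjusted p was 0.0438 with the missing direction in the model, and the call was lost without ICC9, HCC2.1 or HCC2.4 (up to 0.0696). Within the ICC lines it was highest in ICC2.7 and ICC2.9, as were Col3a1 and Col6a1 to Col6a3. Loxl3, a cross-linking oxidase, differed by 2.23 (SE 0.44, adjusted p = 0.082).

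Between the labelled sexes 5 genes of this list were called (19.2%, against 2.94% of all genes), 2 higher and 3 lower in female-labelled lines. Pcolce, which speeds up the removal of the C-terminal propeptide, was lower in female-labelled lines (-1.76, SE 0.08, adjusted p = 1.08e-04). The oxidase Loxl1 (-1.74, adjusted p = 0.0235) and the prolyl hydroxylase family member P3h3 (-0.79, adjusted p = 0.0324) were also lower. The propeptide proteases Adamts3 (1.24) and Tll1 (1.53) were higher, both with an adjusted p of 0.00411. With the missing direction in the model limma called Pcolce (adjusted p = 7.17e-04), Tll1 (0.0142) and Adamts3 (0.0147), not Loxl1 (0.0524) or P3h3 (0.0778). Without 1 line, these 3 were called in all 8 fits. Loxl1 was called only without ICC10, HCC1 or HCC4 (adjusted p up to 0.0922 otherwise), and P3h3 only without HCC1 or HCC2.1 (up to 0.132).

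Of 10 collagen receptors 9 were measured and 0 were called between types by limma (2 at an unadjusted p under 0.05, which is 22.2%, against 14.1% of all genes). The receptor kinase Ddr2 was lower in the female-labelled lines (-3.50, SE 0.72, adjusted p = 0.046), at 10.61 in ICC2.7 and 10.85 in ICC2.9 and between 4.36 and 6.90 in the other lines. It was the 1 receptor called between the labelled sexes (11.1%, against 2.94% of all genes). It was not called with the missing direction (0.0894), and without 1 line it was called only when HCC4 was left out (up to 0.159 otherwise). The other collagen receptor kinase, Ddr1, differed between types by -0.58 (SE 0.12, adjusted p = 0.0959).

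Since stellate cells and fibroblasts make collagen in liver, their markers were read in the same lines. The mean signal of the 12 listed markers was 6.02 in ICC2.7 and 5.83 in ICC2.9, 5.32 in ICC9 and 5.11 in ICC10, and between 5.49 and 5.82 in the HCC lines. Limma called 0 of the 12 between types (2 at an unadjusted p under 0.05, which is 16.7%, against 14.1% of all genes) and 1 (8.33%, against 2.94%) between the labelled sexes, Acta2, the smooth muscle actin of activated stellate cells (-0.52, adjusted p = 0.046). Acta2 was not called with the missing direction (0.122), and without 1 line only when HCC4 was left out (up to 0.201 otherwise). Between types 9 of the 12 had a positive difference (75.0%, against 50.2% of all genes) and 3 a negative one, with a median of 0.04. The markers thus did not all move together. Rgs5, a pericyte gene and the list's widest in range, measured 6.08 in ICC9, 4.40 in ICC10, 10.01 in ICC2.7 and 9.70 in ICC2.9, and between 9.49 and 10.12 in the HCC lines (difference -2.29, adjusted p = 0.408). Des, the muscle filament desmin, was at 4.97 to 5.44 in ICC and 5.37 to 6.86 in HCC lines (-0.86, adjusted p = 0.23). Pdgfrb measured 10.55 in ICC2.7, 9.89 in ICC2.9 and 6.66 to 8.41 elsewhere (difference 1.23, limma adjusted p = 0.446). The defining matrix genes Dcn and Lum stayed between 3.03 and 3.82 and the stellate cell gene Lrat between 4.42 and 4.65 in all lines, below the median gene. Only 3 of the 12 markers had a mean above the median gene, and the part of such cells in the collagen differences was not tested. Markers of endothelial cells (0 of 7, mean 4.45 to 4.59 in ICC and 4.51 to 4.65 in HCC lines) and of leukocytes (0 of 5 measured, 4.24 to 4.52 and 4.47 to 4.57) did not lie above it. Of hepatocyte markers 1 of 7 did (4.71 to 4.82 and 4.79 to 5.17). This was Hnf4a, at 7.26 in HCC2.1, 7.06 in HCC2.4 and 5.32 to 5.92 in the other lines (difference between types -0.82, adjusted p = 0.418). Alb, the albumin gene, stayed between 4.12 and 4.64 in both types. Of bile duct markers 3 of 6 measured had a mean above the median gene (6.11 to 6.83 and 5.96 to 6.60), namely Krt7, Krt19 and Sox9. Sox9 lay between 11.45 and 11.86 in all lines of both types. Between the labelled sexes limma called 0 of 7 endothelial, 0 of 5 leukocyte and 0 of 7 hepatocyte markers. Krt19, a keratin of bile duct cells, was the 1 of 6 bile duct markers called between them (16.7%, against 2.94% of all genes). It was 2.19 higher in female-labelled lines (SE 0.24, adjusted p = 0.00483, and 0.0145 with the missing direction). Limma called none of these cell type markers between types, with 1 of 7 endothelial (14.3%), 1 of 5 leukocyte, 0 of 7 hepatocyte and 1 of 6 bile duct markers (16.7%) at an unadjusted p under 0.05, against 14.1% of all genes.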

How the data were processed

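Total RNA (100 ng) from 8 untreated clonal lines grown with 10% serum was measured on Affymetrix arrays, 1 per line. The deposited values are log2 signals with 2 decimals, made by the authors with RMA in the oligo package per the submitters' processing notes; the package version, like the build, was not given in the sources used here. Of 39993 deposited probe sets, 23521 name 1 gene. Where a gene had several, the one highest on average stood for it, with no filter on low values. Promoter sequences are from RefSeq (GRCm38.p6).

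limma 3.58.1 in R 4.3.3 (lmFit, eBayes, two-sided) tested ICC against HCC without covariates, female- against male-labelled lines with tumour type, and their interaction, with Benjamini-Hochberg adjustment over all 22180 genes. These models left 6, 5 and 4 residual and added 2.85, 3.01 and 3.35 prior degrees of freedom. The procedure for types was tested on simulated data with independent lines. Such data cannot show how the missing direction, or lines that share a source, affect the calls. The number of arrays limits the precision. Tables and figures used Python 3.11.15, pandas 2.3.3 and matplotlib 3.10.9.

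The collagens, the lists of processing genes, receptors and markers, and the tests were chosen with earlier results of these data known. Values in every line are given for collagens called in any test, with an unadjusted p under 0.05 between types, among the 8 highest means or with a range of at least 2, and for their partner chains. Other genes with values were the called list members and, chosen after their values were seen, Col16a1, Loxl3, Ddr1, Pdgfrb, Rgs5, Des, Dcn, Lum, Lrat, Hnf4a, Alb and Sox9.

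Alternatives were a trended robust eBayes, only genes over the median level, quantile normalization, median centring, array weights, averaged probe sets, a random block of type and sex, averages of those pairs, sex as covariate, each sex alone, the missing direction, and leaving out each line.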

Additional observations from a re-analysis of the deposited data

Results flagged for a closer look

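In 4 lines of a type, 1 line stood far from the other 3 in 6 of 90 such sets (44 collagens and Serpinh1, each in both types). Its gap to the nearest line, as a share of the range of the 4 lines, was over Dixon's 95% critical value, and chance alone gives this in about 1 in 20 sets. In HCC lines Col1a1 was high in HCC1 (7.18, others 6.41 to 6.52), Col1a2 was high in HCC4 (6.78, others 5.42 to 5.48) and Col8a2 was high in HCC2.1 (5.50, others 5.16 to 5.20). In ICC lines Col27a1 was low in ICC10 (6.42, others 6.62 to 6.65), Col28a1 was high in ICC2.7 (4.82, others 4.12 to 4.18) and Col9a1 was low in ICC2.9 (4.74, others 5.05 to 5.11). No collagen passed the test of a difference between the labelled sexes in the contrast of types (limma, 0 called and 8 at an unadjusted p under 0.05).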

How the results depend on the processing

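The count of collagens called between ICC and HCC lines was 3, and it stayed between 2 and 3 under 7 of 13 settings other than leaving out lines. The genes were not always the same. In the male-labelled lines alone the 2 called were Col3a1 and Col6a3, and with sex and the missing direction they were Col3a1 and Col7a1. The count was 6 with array weights, 6 with sex as a covariate and 6 in the female-labelled lines alone. It was 0 with the random block, 0 when the missing direction was fitted and 0 with lines of one type and sex averaged (limma, with 9, 9 and 5 at an unadjusted p under 0.05). Leaving out 1 line gave counts from 0 to 3. The count between labelled sexes, also 3, was 5 among genes above the median level, where only 25 collagens were tested. It was 11 with array weights, and from 0 to 7 without 1 line. The interaction count of 0 became 1 with the missing direction and stayed at 0 without any 1 line; where a type and sex then kept 1 line, that line was assumed to vary like the others. The array weights did not converge, and in the model of types they gave ICC9 a weight of 71.6, against 0.347 to 0.981 for the other lines. The difference between types changed sign under at least 1 alternative in 13 of the 44 collagens, whose differences lay between -0.10 and 0.29, and none of them was called between types. The most under 1 alternative were 6 in the male-labelled and 5 in the female-labelled lines alone. Among collagens with values in every line these were Col5a1 with array weights (-0.01), Col4a1 without ICC10 (0.03, with -0.20 to 0.03 over the 8 lines left out in turn) and in the male-labelled lines alone (0.14), and Col4a2 in the male-labelled lines alone (0.07). The count over all genes between types was 58, and it was 103 among genes above the median level, 2278 with array weights, 6 with the random block, 12 with the missing direction, 428 with sex, 119 with both, 696 in female-labelled and 200 in male-labelled lines alone, 0 with averaged lines (1170 unadjusted) and 2 to 109 without 1 line. Between labelled sexes it was 653, and it was 858 of 11087 genes above the median level (7.74%), 2036 with array weights, 334 with the block, 280 with the missing direction and 146 to 917 without 1 line. For the interaction it was 0, and it was 255 with the missing direction and 0 to 238 without 1 line. The cause of these shifts was not tested. Col3a1, Col4a5 and Col7a1 kept their direction under all 21 alternatives, with differences of 1.47 to 1.77, -1.16 to -0.91 and -1.11 to -0.90. They were called in 13, 10 and 12 of these, with adjusted p from 5.29e-04 to 0.914, 0.00108 to 0.867 and 9.03e-04 to 0.867. No paired analysis was possible because the labels do not tie lines to mice or tumours.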
